A study of Mus musculus with 16 samples.

Results

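Guanylate-binding proteins are large GTPases of the dynamin superfamily, and their genes are among the most strongly interferon-inducible genes of the mouse. Promoters of interferon-inducible genes commonly carry the gamma-activated sequence (GAS) or the interferon-stimulated response element (ISRE), and IRF1 is one of the factors that bind the ISRE. The proteins assemble on vacuoles that hold intracellular pathogens and on bacterial lipopolysaccharide (LPS), and through these they act upstream of the caspases that sense cytosolic LPS. The family was taken as the rows of the deposited log2 CPM table (CPM are read counts scaled to library size) whose symbols are *Gbp2* to *Gbp11*, which gave 10 of 16707 genes, and all 10 were among the 16066 genes that entered the tests.

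The study asked whether NLRX1, a mitochondrial NOD-like receptor, restrains the inflammatory activation of astrocytes. Primary astrocytes were selected with anti-ACSA2 beads from the brains of P6 WT C57BL6J or global *Nlrx1*-/- (KO) pups and received for 24 h either water as vehicle or 500 ng/mL LPS together with 10 ng/mL IFNγ. There were 4 litters per genotype, and each gave 1 vehicle and 1 stimulated culture, so that the 16 poly-A libraries form 4 groups of n = 4. A litter may pool several pups, the removed part of *Nlrx1* is not given in the sources used here, and LPS and IFNγ were never given apart.

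The libraries held 27259420 to 43752903 assigned read pairs (median 35554625). *Nlrx1* lay between 4.08 and 4.44 log2 CPM in the 8 WT libraries and between 1.09 and 2.96 in the 8 KO libraries, so the genotype labels were not contradicted. All 8 astrocyte markers were in the deposited table, with a summed level of 4440 to 9210 CPM. Of 8 microglia and macrophage markers, 6 (*Aif1*, *Cx3cr1*, *Csf1r*, *Tmem119*, *Ptprc* and *Itgam*) were below its filter with 0 to 14 reads per library, and the other two summed to 0.651 to 3.62 CPM. The 5 oligodendrocyte lineage markers summed to 524 to 1100 CPM. In such bulk samples, fewer cells of a type and less RNA per cell cannot be told apart.

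The family lies in 2 clusters. *Gbp2*, *Gbp3*, *Gbp5* and *Gbp7* lie on the plus strand of chromosome 3 within 144.0 kb (GRCm39, chr3:142199739-142343779), in the order *Gbp5*, *Gbp7*, *Gbp3*, *Gbp2*. *Gbp4*, *Gbp6*, *Gbp8*, *Gbp9*, *Gbp10* and *Gbp11* lie on the minus strand of chromosome 5 within 332.3 kb (chr5:105162016-105494338). GENCODE annotates all 10 as protein coding, though the only RefSeq transcript quantified for *Gbp11* is a non-coding record. The gene models of *Gbp8* (chr5:105162016-105287452), *Gbp9* (chr5:105224332-105287452) and *Gbp4* (chr5:105263633-105287609) overlap on the same strand, so reads from their shared exons are divided by Salmon's estimate. Sequence sharing was heaviest in the chromosome 5 cluster. Of the 31-base words of the *Gbp10* transcript, 82.6% also occurred in *Gbp6*, and of those of *Gbp6*, 78.4% occurred in *Gbp10*. The share found in any other *Gbp* gene was 45.4% for *Gbp8*, 32.5% for *Gbp11*, 22.5% for *Gbp4* and 14.3% for *Gbp9*, against 0.1% to 6.9% for the 4 members on chromosome 3. The division of reads between *Gbp6* and *Gbp10*, and to a lesser degree among the others on chromosome 5, is therefore uncertain.

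The promoters of the chromosome 3 members are shown because such motifs are where an interferon signal is read. RefSeq promoter sequences on build GRCm38.p6 were at hand for 4 of the 10 members, namely *Gbp2*, *Gbp3*, *Gbp5* and *Gbp7*, and for *Gbp2b*, the remaining gene of the cluster. *Gbp4*, *Gbp6*, *Gbp8*, *Gbp9*, *Gbp10* and *Gbp11* had no entry. The 250 bases before the start are given 5′ to 3′ on the plus strand for *Gbp2* (chr3:142620413-142620662), *Gbp3* (chr3:142559794-142560043), *Gbp5* (chr3:142496684-142496933), *Gbp7* (chr3:142530086-142530335) and *Gbp2b* (chr3:142594597-142594846), with capitals marking matches on either strand to the ISRE core (GAAA, any 2 bases, GAAA) or to the GAS (TTC, any 3 bases, GAA).
Gbp2: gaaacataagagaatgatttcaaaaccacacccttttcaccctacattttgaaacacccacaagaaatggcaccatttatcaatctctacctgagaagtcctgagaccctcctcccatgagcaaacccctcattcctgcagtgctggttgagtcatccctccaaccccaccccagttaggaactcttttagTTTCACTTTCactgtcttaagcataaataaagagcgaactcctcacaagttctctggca
Gbp3: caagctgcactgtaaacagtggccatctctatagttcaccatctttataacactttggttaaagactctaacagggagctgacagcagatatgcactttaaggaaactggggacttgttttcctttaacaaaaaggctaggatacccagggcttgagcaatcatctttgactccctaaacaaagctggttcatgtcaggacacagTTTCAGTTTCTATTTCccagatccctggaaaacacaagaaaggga
Gbp5: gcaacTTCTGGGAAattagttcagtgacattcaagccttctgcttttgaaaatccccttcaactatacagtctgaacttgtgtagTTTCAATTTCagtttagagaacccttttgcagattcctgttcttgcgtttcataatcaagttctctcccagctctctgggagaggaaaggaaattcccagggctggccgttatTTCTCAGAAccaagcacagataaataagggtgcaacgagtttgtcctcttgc
Gbp7: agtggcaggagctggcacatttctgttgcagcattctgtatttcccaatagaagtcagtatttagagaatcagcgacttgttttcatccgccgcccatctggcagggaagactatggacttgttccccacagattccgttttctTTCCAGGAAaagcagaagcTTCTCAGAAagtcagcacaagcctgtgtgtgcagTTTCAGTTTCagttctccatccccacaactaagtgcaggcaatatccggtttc
Gbp2b: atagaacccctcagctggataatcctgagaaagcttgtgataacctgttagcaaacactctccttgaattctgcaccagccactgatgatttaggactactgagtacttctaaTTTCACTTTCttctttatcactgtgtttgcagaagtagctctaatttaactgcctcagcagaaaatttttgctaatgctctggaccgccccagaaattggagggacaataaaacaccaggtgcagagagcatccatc

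All 4 members with an entry held an ISRE core match, which here reads on the minus strand and so appears in the lines as TTTC, 2 free bases and TTTC. Counted from the start, it lay at bases -59 to -50 in *Gbp2*, -53 to -44 in *Gbp7* and -165 to -156 in *Gbp5*. *Gbp3* held 2 overlapping matches at -45 to -36 and -39 to -30, while its second RefSeq promoter held none. *Gbp5* and *Gbp7* each also held 2 GAS matches, at -245 to -237 and -52 to -44 in *Gbp5* and at -106 to -98 and -87 to -79 in *Gbp7*. No GAS match overlapped an ISRE match. Among 32851 RefSeq promoters of 300 bases, 3.44% held the ISRE core and 8.3% the GAS. *Gbp2b* held an ISRE core match at -137 to -128. That gene had 0 reads in all 8 vehicle libraries and 0 to 10 reads in the stimulated ones, and it was not in the deposited table. A match is a description of letters, and binding was not measured.

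LPS + IFNγ raised the family in both genotypes. All 10 members were higher after stimulation in WT, with edgeR adjusted p-values from 1.36e-12 to 3.43e-09, where 23.7% of all genes tested passed as higher. In KO all 10 were higher as well, with edgeR adjusted p-values from 1.59e-12 to 2.2e-09 against 25.3% of all genes. Every litter of both genotypes went up for every member. *Gbp8*, *Gbp10* and *Gbp11* entered the tests only through their stimulated reads, since in the vehicle libraries alone they failed the filter on low counts. That they passed as higher was thus nearly fixed by the filter. The median fitted log2 change of the members was 8.54 in WT and 8.89 in KO, against -0.02 and -0.03 over all genes tested, and *Gbp8* and *Gbp10*, whose fitted changes have no fixed size for want of vehicle reads, lay above these medians.

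**Figure D1:**
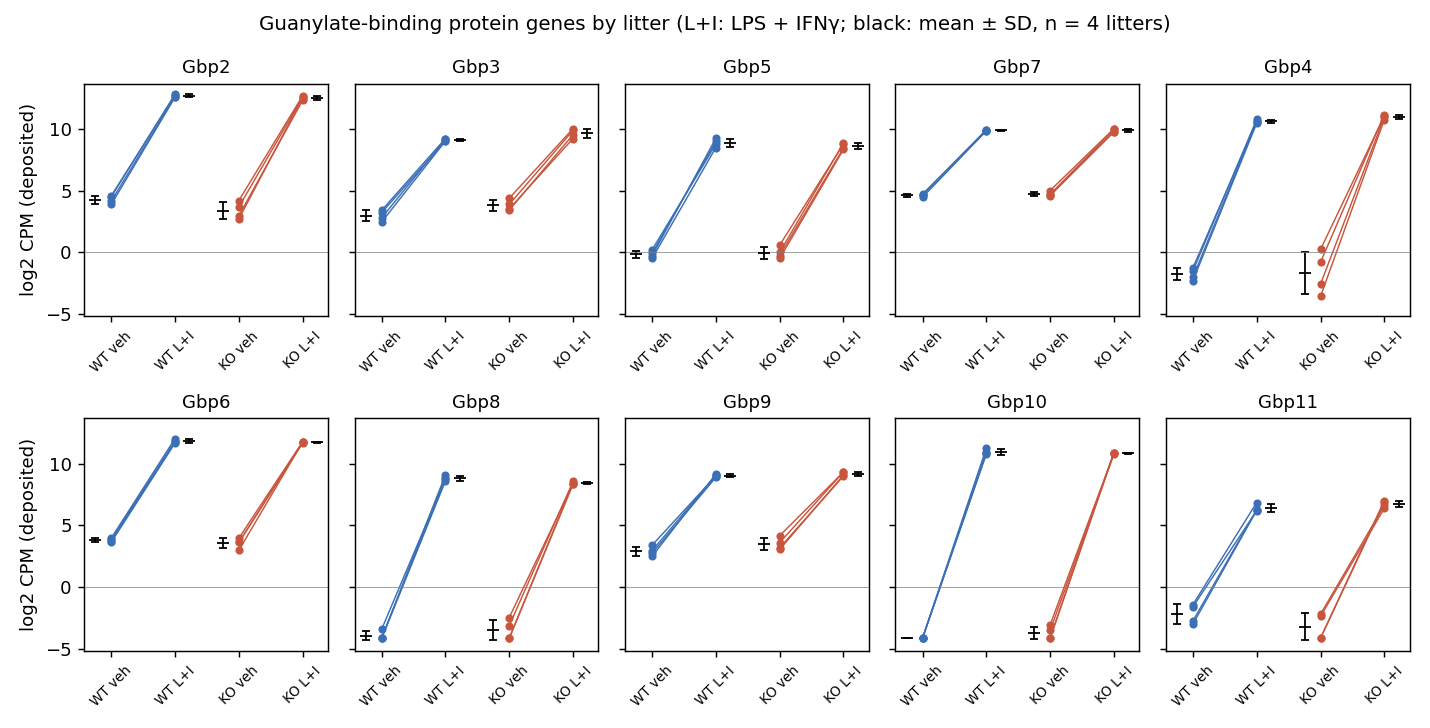
Deposited log2 CPM of the 10 members, with 1 panel per gene. Each line joins the vehicle (veh) and LPS + IFNγ (L+I) cultures of 1 litter, blue for WT and red for KO, and the black marks give the mean ± SD of 4 litters. All lines go up, from values as low as -4.13, where no read was assigned, to between 6.2 and 12.82.

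In TPM, which are set per transcript length and allow genes to be compared, the 10 members together went from 47.3 ± 5.12 (SD, n = 4) in WT vehicle to 10600 ± 873 after LPS + IFNγ. In KO the sum went from 44.2 ± 3.13 to 9990 ± 549. The mean change within litters was 225-fold in WT and 226-fold in KO. As a share of the summed CPM of the 16707 deposited genes, the family rose in WT from 0.00807% ± 0.00065 to 1.61% ± 0.121. In KO this share rose from 0.00825% ± 0.000526 to 1.54% ± 0.053.

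*Gbp2*, whose prenylated product coats the vacuoles of intracellular parasites, gave the largest part of the stimulated pool. Its level in WT vehicle was 3.89, 4.58, 4.16 and 4.51 log2 CPM in litters 1 to 4 and became 12.58, 12.74, 12.63 and 12.82 after stimulation. The KO litters had 3.68, 2.71, 4.2 and 2.97 in vehicle and 12.58, 12.54, 12.69 and 12.32 after stimulation. Vehicle and stimulated libraries lay far apart in both genotypes, while the stimulated WT and KO libraries overlapped. The change within litters was 8.41 ± 0.23 log2 units in WT and 9.14 ± 0.58 in KO (SD, n = 4 each), which correspond to about 340-fold and 564-fold. *Gbp2* made up 50.41% ± 0.81 of the family TPM in stimulated WT and 47.09% ± 3.65 in stimulated KO.

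*Gbp5*, known for promoting assembly of the NLRP3 inflammasome, was low before stimulation. Its log2 CPM lay between -0.49 and 0.21 in WT vehicle and between -0.49 and 0.59 in KO vehicle, and between 8.5 and 9.25 and between 8.35 and 8.87 after stimulation. The change within litters was 9.04 ± 0.39 log2 units in WT and 8.65 ± 0.32 in KO. *Gbp7* had the smallest change and the highest vehicle level on the log2 CPM scale. It lay between 4.47 and 4.71 in WT vehicle and between 9.85 and 9.94 in stimulated WT, and the KO ranges were 4.6 to 5.01 and 9.76 to 10.02. Its change of 5.25 ± 0.1 log2 units in WT and 5.14 ± 0.11 in KO still amounted to about 38.2-fold and 35.3-fold. *Gbp3*, the remaining chromosome 3 member, rose by 6.14 ± 0.39 log2 units in WT and 5.86 ± 0.23 in KO.

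On chromosome 5, 4 members were close to absent in vehicle. *Gbp10* had 0 reads in all 4 WT vehicle libraries and 0 to 2.3 estimated reads in the KO ones. After stimulation it reached 10.78, 10.95, 10.86 and 11.26 log2 CPM in WT and 10.84, 10.9, 10.78 and 10.89 in KO. Set against the limit that a count of 0 allows, 3 reads over the 4 libraries, the WT level rose at least 87567-fold. The KO ratio, with 3 reads in vehicle, was 84520-fold (95% exact interval 28921 to 409849, counting error only). Both values rest on the division of reads between *Gbp10* and *Gbp6*. Summed over the pair, the level went from 14.1 ± 1.44 to 5670 ± 707 CPM in WT and from 12 ± 3.2 to 5260 ± 83.7 CPM in KO, a change within litters of 8.65 ± 0.07 and 8.81 ± 0.43 log2 units.

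*Gbp8* had 1 read in the 4 WT vehicle libraries together and 7 in the KO ones. Its stimulated level was 8.61, 8.81, 8.75 and 9.11 log2 CPM in WT and 8.45, 8.34, 8.57 and 8.39 in KO. The ratio of stimulated to vehicle reads, scaled to depth, was 60806 in WT (95% exact interval 10913 to 2401766) and 7062 in KO (3427 to 17566), so it was set mainly by a handful of vehicle reads. *Gbp4* had 7 to 11 reads per WT vehicle library and 1 to 48 per KO vehicle library. It changed by 12.29, 11.84, 12.75 and 12.63 log2 units in the WT litters and by 13.54, 11.96, 14.33 and 10.81 in the KO litters. The KO mean of 12.66 had an SD of 1.58, against 12.38 ± 0.41 in WT, and the spread arose in vehicle, where KO values ran from -3.56 to 0.24 log2 CPM. *Gbp11*, the least abundant member after stimulation, had 30 vehicle reads in WT and 11 in KO over 4 libraries each. Its ratio was 374 in WT (262 to 554) and 1331 in KO (744 to 2667). The intervals for *Gbp8* and *Gbp11* cover counting error only, and for both the responses of the WT and KO litters overlapped.

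*Gbp6* and *Gbp9* were expressed before stimulation. *Gbp6* changed by 8.01 ± 0.06 log2 units in WT, the smallest SD of any member, and by 8.18 ± 0.41 in KO. *Gbp9* changed by 6.13 ± 0.44 in WT and 5.68 ± 0.37 in KO. Ranked by the WT change in log2 CPM among all 16707 genes, *Gbp10* was at place 2 and *Gbp8* at place 5, and 9 of the 10 members were among the first 100. In KO the corresponding places were 1 and 9, with 7 members among the first 100. These ranks use the deposited values, which set a gene without reads at -4.13 log2 CPM.

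The order of the members differed before and after stimulation. In WT vehicle, *Gbp2* led with 18.5 ± 3.8 TPM, followed by *Gbp7* with 10.6 ± 0.725, *Gbp6* with 7.66 ± 0.702, *Gbp3* with 6.8 ± 1.93 and *Gbp9* with 2.7 ± 0.936. *Gbp6* and *Gbp3* overlapped across litters, and the other neighbours named did not. *Gbp5* followed at 0.66 ± 0.146 TPM, and *Gbp11*, *Gbp4*, *Gbp8* and *Gbp10* were each at or below 0.273 TPM in every WT vehicle library. After LPS + IFNγ the WT order was *Gbp2* at 5350 ± 370 TPM, *Gbp6* at 1710 ± 190, *Gbp10* at 1170 ± 181 and *Gbp4* at 734 ± 85.2. *Gbp3* (403 ± 27.1), *Gbp8* (350 ± 52.6), *Gbp7* (347 ± 13.4) and *Gbp5* (318 ± 67.9) came next with each overlapping its neighbour, and *Gbp9* (173 ± 11.8) and *Gbp11* (63.4 ± 15.8) were lowest. *Gbp10* and *Gbp4* thus moved from the foot of the order to places 3 and 4, and *Gbp7* moved from place 2 to place 7.

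In KO the stimulated order began in the same way, with *Gbp2* at 4720 ± 610 TPM, *Gbp6* at 1570 ± 84.7, *Gbp10* at 1060 ± 14.4, *Gbp4* at 932 ± 80.7 and *Gbp3* at 591 ± 123. The vehicle order was less settled. *Gbp3* (11.6 ± 3.52 TPM), *Gbp7* (11 ± 1.3) and *Gbp2* (10.2 ± 4.94) overlapped across KO litters, and *Gbp2* held 22.98% ± 10.11 of the family TPM against 38.97% ± 4.67 in WT vehicle. *Gbp3* held 26.35% ± 7.81 against 14.34% ± 3.39. The TPM of *Gbp9* is a lower estimate, since the transcripts paired to it held 73.3% to 92.9% of the reads recovered from the deposited CPM, against 97.6% to 104.5% for the other members.

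**Figure D2:**
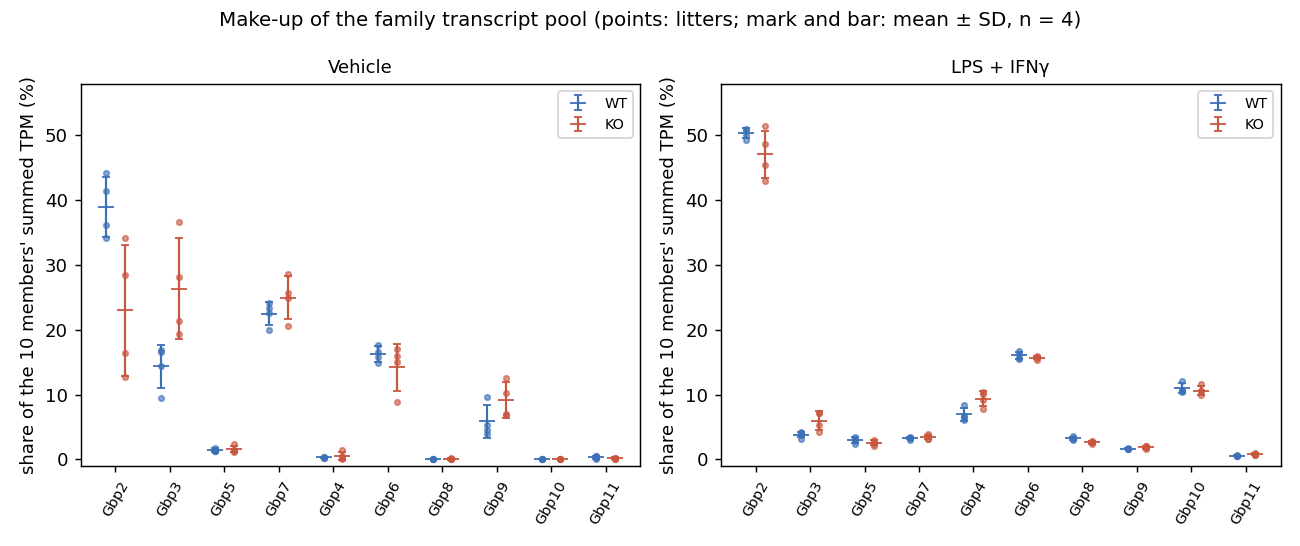
Share of each member in the summed TPM of the 10 members (y axis, percent), in vehicle on the left and after LPS + IFNγ on the right. Points are litters, and marks with bars are the mean ± SD of 4 litters in WT (blue) and KO (red). *Gbp2* holds 50.41% of the stimulated WT pool, and *Gbp4* and *Gbp10* go from at most 1.38% in vehicle to between 6.16% and 12.1% after stimulation.

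Loss of NLRX1 was then compared within each treatment. In vehicle 0 of 10 members passed the edgeR test, as did 0.0% of all genes tested. An unadjusted p below 0.05 was found for 4 members, against 19.6% of all genes. *Gbp8*, *Gbp10* and *Gbp11* had too few vehicle reads to enter a test on the vehicle libraries alone. After LPS + IFNγ, 0 of 10 passed where 5.03% of all genes did, and 2 had an unadjusted p below 0.05 against 28.4%. For the interaction of genotype and treatment, 0 of 10 and 0.0% of all genes passed, and 3 members had an unadjusted p below 0.05 against 15.4%. The median difference between KO and WT in vehicle was 0.12 log2 units over the 8 members other than *Gbp8* and *Gbp10*. Over all 10 it was 0.39, with *Gbp8* and *Gbp10* resting on few vehicle reads. After stimulation, where both had at least 9347 reads per library, it was -0.06 over all 10 and 0.05 without them. The sign after stimulation thus depended on these members. Over all genes the median was 0 in vehicle and -0.01 after stimulation. The levels of *Gbp2*, *Gbp3*, *Gbp8* and *Gbp9* are described next because, of the members with enough reads, they came nearest to the threshold.

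**Figure D3:**
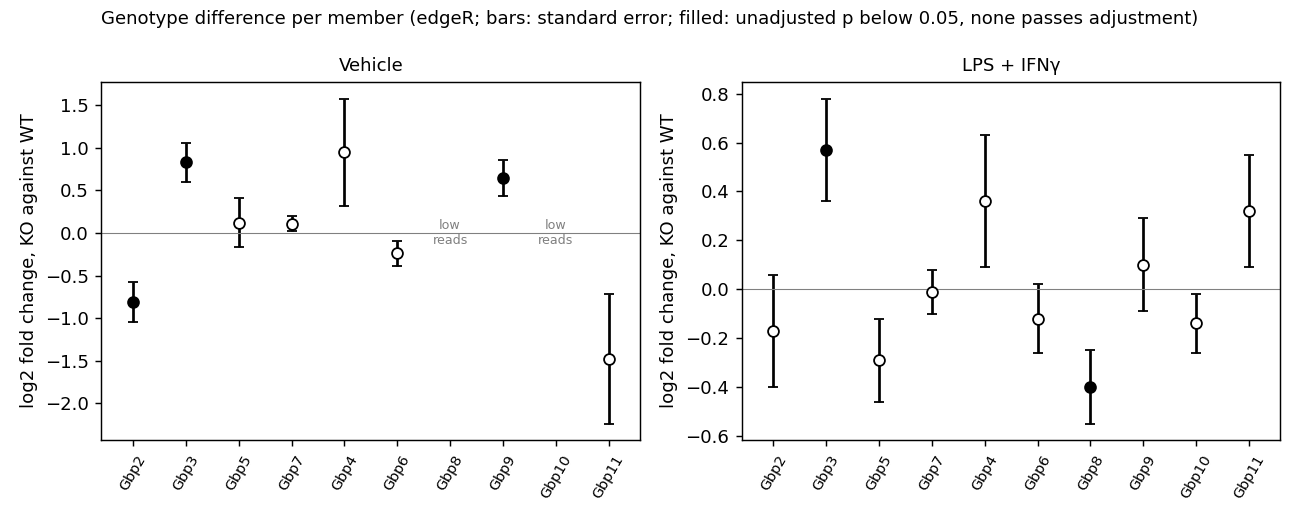
Log2 fold change of KO against WT for each member, in vehicle (left) and after LPS + IFNγ (right, on a narrower scale), with standard errors from edgeR. Filled points have an unadjusted p below 0.05 and none passed adjustment. *Gbp3* lies above 0 in both panels, and *Gbp8* and *Gbp10* are left out in vehicle for want of reads.

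*Gbp3* was the member with the highest KO levels relative to WT after stimulation. In vehicle it had 2.8, 3.41, 3.23 and 2.46 log2 CPM in the WT litters and 3.43, 4.39, 3.53 and 3.89 in the KO litters. After stimulation the values were 9.17, 9.23, 9.04 and 9.03 in WT and 9.54, 10.03, 9.23 and 9.89 in KO. The 4 KO litters lay above the 4 WT litters in both treatments, though KO litter 3 cleared the highest WT litter by only 601 against 600 CPM after stimulation. The edgeR log2 fold change was 0.83 (SE 0.23, adjusted p = 0.12) in vehicle and 0.57 (SE 0.21, adjusted p = 0.101) after stimulation. The interaction was -0.27 (SE 0.18, adjusted p = 0.49). The leading *Gbp3* transcript held 51.6% ± 3.2 of the gene's reads in stimulated WT and 45.7% ± 3 in stimulated KO. In that share the WT and KO litters overlapped.

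*Gbp2* differed the other way in vehicle. KO litters 1, 2 and 4, at 3.68, 2.71 and 2.97 log2 CPM, lay below every WT litter, while KO litter 3, at 4.2, lay among them. The edgeR log2 fold change was -0.81 (SE 0.24, adjusted p = 0.126) in vehicle and -0.17 (SE 0.23, adjusted p = 0.665) after stimulation. The edgeR interaction was 0.7 (SE 0.23, unadjusted p = 0.0126, adjusted p = 0.231), with the response above all WT litters in 3 of 4 KO litters.

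*Gbp8*, whose stimulated values are given above, was the member with the lowest stimulated KO levels relative to WT, and its highest KO litter, at 8.57, lay just below its lowest WT litter, at 8.61. The edgeR log2 fold change was -0.4 (SE 0.15, adjusted p = 0.0958). Its leading transcript held 75% to 77.7% of the reads in the stimulated WT litters and 72.8% to 74.8% in the KO litters. That of *Gbp6* was apart as well, at 96.7% to 97.4% in WT and 95.8% to 96.6% in KO. For *Gbp4*, *Gbp7* and *Gbp9* this share overlapped between WT and KO. It was not taken over all genes, so these values have no background to be set against, and no test was run. The division of reads is also uncertain for *Gbp6* and *Gbp8*. *Gbp9* had 3.4, 2.96, 2.75 and 2.49 log2 CPM in the WT vehicle litters and 3.06, 3.61, 3.19 and 4.17 in the KO ones, which overlapped. Its edgeR log2 fold change was 0.65 in vehicle (SE 0.21, adjusted p = 0.143) and 0.1 after stimulation (SE 0.19, adjusted p = 0.783), and its interaction was -0.56 (SE 0.23, adjusted p = 0.289).

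*Gbp4* had an edgeR log2 fold change of 0.36 after stimulation (SE 0.27, adjusted p = 0.412), with 3 of 4 KO litters above all WT litters. Its SD among stimulated litters was 0.13 log2 CPM in WT and 0.17 in KO, while the SE also draws on its sparse vehicle reads. *Gbp11* had 0.32 (SE 0.23, adjusted p = 0.379) and *Gbp5* -0.29 (SE 0.17, adjusted p = 0.281) by the same test. *Gbp2*, *Gbp6*, *Gbp7*, *Gbp9* and *Gbp10* all lay within 0.17 log2 units of 0 after stimulation. In vehicle, *Gbp5*, *Gbp6* and *Gbp7* lay between -0.24 and 0.12, *Gbp4* had 0.95 (SE 0.63) and *Gbp11* -1.48 (SE 0.76) on few reads. The fourth member with an unadjusted p below 0.05 in vehicle was *Gbp10*, a contrast of 0 reads in WT with about 3 in KO. The interaction of *Gbp11*, 1.79 (SE 0.78, adjusted p = 0.314), likewise rests on its 30 WT and 11 KO vehicle reads, of which KO litters 2 and 4 had 0.

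Counted by litters that do not overlap, *Gbp3* was the 1 member of 10 apart in vehicle, where 9.45% of 16707 genes were apart. After stimulation *Gbp3* and *Gbp8* were apart, 2 of 10 against 13.3% of genes. For the response within litters 0 of 10 were apart, against 8.31%.

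The calls on genotype depended on the tool. DESeq2 passed 3 members in vehicle, *Gbp3* (0.83, adjusted p = 0.0149), *Gbp9* (0.64, adjusted p = 0.0454) and *Gbp2* (-0.82, adjusted p = 0.0218), where it passed 5.89% of all genes. After stimulation it passed *Gbp8* (-0.4, adjusted p = 0.0146) and *Gbp3* (0.58, adjusted p = 0.0476), where it passed 18.0% of all genes, and for the interaction 0 members and 2.88% of genes. By limma-voom 0 members passed in the interaction and in vehicle, with 0.0% and 0.00622% of all genes, and *Gbp8* alone after stimulation (-0.4, adjusted p = 0.0485), with 2.39%. Limma-voom with the litter as a random effect, an alternative added after the data were seen, passed *Gbp3*, *Gbp4* and *Gbp8* after stimulation, where it passed 7.72% of genes.

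KO litter 3 stood nearest to WT after stimulation, where it was the KO litter closest to the WT mean for 7 of 10 members, and in vehicle for 4 of the 8 members other than *Gbp8* and *Gbp10*, with KO litter 1 the closest for 3. *Gbp4* and *Gbp11*, which are among these 8, had few vehicle reads. KO litters 2 and 4 were the outer ones for *Gbp3*, *Gbp4*, *Gbp8*, *Gbp9* and *Gbp11* after stimulation. Without KO litter 3, edgeR passed *Gbp2* (-1.14, adjusted p = 0.012) and *Gbp3* (0.93, adjusted p = 0.0262) in vehicle, where 8.04% of genes passed. It passed *Gbp3* after stimulation (0.69, adjusted p = 0.0298), with 20.5% of genes, and *Gbp2* in the interaction (0.92, adjusted p = 0.0476), with 1.95%. KO litter 3 was singled out as nearest to WT on these same values. Larger differences without it were thus largely fixed in advance, and the added calls are no further support. The *Nlrx1* level of KO litter 3, 1.84 log2 CPM in vehicle and 1.09 after stimulation, was the lowest of the 4 KO litters in both treatments, and its part in these values was not tested.

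**Figure D4:**
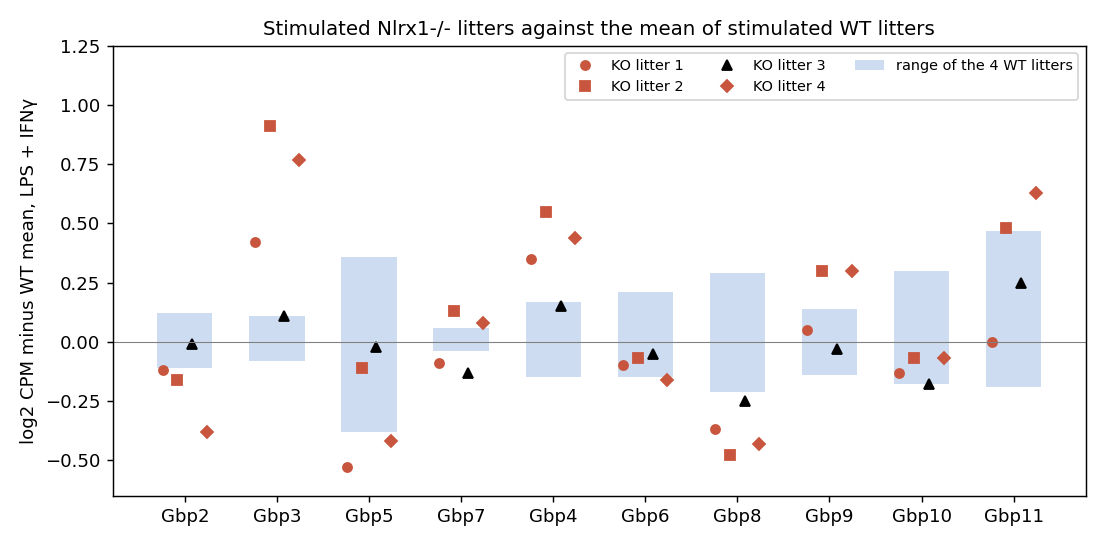
Log2 CPM of the 4 stimulated KO litters minus the mean of the 4 stimulated WT litters, for each member. Blue bars span the 4 WT litters, and markers are single KO litters, with litter 3 in black. *Gbp3* runs from 0.11 to 0.91 and *Gbp8* from -0.48 to -0.25, both outside or at the edge of the WT bars.

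Of the 8 astrocyte markers, 0 passed the edgeR test between genotypes in vehicle, and 2 were lower in KO after stimulation, *Gja1* (-1.33, adjusted p = 0.0472) and *S100b* (-2, adjusted p = 0.0439). *Gfap* averaged 1610 CPM in WT and 654 in KO in vehicle, and 1140 and 600 after stimulation. For *Aqp4* the WT and KO means were 1100 and 637 CPM in vehicle, and 623 and 263 after stimulation. *Slc1a3* averaged 2240 and 2330 CPM in vehicle and 2650 and 2580 after stimulation. None of these 3 passed in either treatment, though *Aqp4* after stimulation was at the threshold (-1.26, edgeR adjusted p = 0.05001). *Slc1a2* came close as well after stimulation (-0.913, edgeR adjusted p = 0.0552), while *Aldh1l1* (-0.0742) and *Slc1a3* (-0.0512) differed little. The summed level of the 8 markers was 5640 to 9210 CPM in WT vehicle, 4440 to 7100 in KO vehicle, 5310 to 8080 in stimulated WT and 4710 to 6220 in stimulated KO. The part of these marker values in the *Gbp2*, *Gbp3*, *Gbp8* and *Gbp9* values was not tested. Of the microglia and macrophage markers, only *P2ry12* and *Cd68* were in the deposited table. They summed to 1.43 to 2.28 CPM in stimulated WT and 1.3 to 3.62 in stimulated KO. *P2ry12*, with 2 to 56 reads per library, averaged 0.194 CPM in WT vehicle and 0.619 in stimulated WT. In KO it averaged 0.24 and 1.18 CPM. *Cd68* had 26 to 74 reads per library, and the other listed markers had 0 to 14.

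Genes that work with the family were described from short lists. In the interferon gamma signalling list, 11 of 13 genes rose and 1 fell in WT, and the same counts held in KO. The transcription factor gene *Irf1* rose by 5.8 log2 units in WT (edgeR adjusted p = 1.83e-11) and by 5.59 in KO. The largest WT changes in that list were those of *Irf8*, 7.92, and of the feedback inhibitor *Socs1*, 6.22. The receptor chains differed little, with *Ifngr1* at -0.17 (adjusted p = 0.0649) and *Ifngr2* at -0.19 (adjusted p = 0.0377). The median WT change of the list was 1.74, against 8.54 for the members and -0.02 for all genes.

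Of the 5 inflammasome genes tested, among 8 listed, 5 rose in both genotypes, against 23.7% of all genes in WT and 25.3% in KO. The largest WT changes were those of *Casp4*, the cytosolic LPS sensor, at 7.33 and *Casp1* at 5.37 log2 units. *Casp4* averaged only -2.4 log2 CPM in WT vehicle. The listed genes *Aim2*, *Nlrp3* and *Il1b* were not among those tested, so their responses are not known here. The immunity-related GTPases, the other interferon-induced GTPase family that acts on pathogen vacuoles, rose in 7 of 7 genes tested in both genotypes with a median of 11.27 in WT. *Tgtp1* and *Tgtp2* had the largest changes there, and *Tgtp2* was at the value of no reads in all 4 WT vehicle libraries, so its fold is not given. The atlastins, related GTPases of the endoplasmic reticulum that are not interferon genes, gave 1 rise (*Atl3*, 0.22) and 1 fall (*Atl1*, -0.85) among 3 genes in WT, and 1 rise and 2 falls in KO.

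The enzymes that prenylate proteins such as GBP2 and GBP5, or process them after prenylation, gave 1 rise and 1 fall among 5 genes in WT. The rise was that of *Rce1* (0.36), which encodes a protease that acts after prenylation, and *Pggt1b*, which encodes a subunit of a prenylating enzyme, had a WT change of 0.17 (edgeR adjusted p = 0.244). Of 11 genes of the LC3 lipidation machinery, which helps place the family on vacuoles, 0 rose and 1 fell in WT (*Map1lc3b*, -0.47). In KO 3 rose and 3 fell, among them *Gabarapl1* at 0.27 and *Map1lc3b* at -0.63, against 25.3% of all genes higher and 24.2% lower. In WT, 23.7% of all genes were higher and 20.2% lower. No interaction passed in any of the 6 lists by edgeR, as for all genes. Between genotypes after stimulation, 2 of 11 LC3 lipidation genes were higher in KO, and 1 of 7 immunity-related GTPases and 1 of 3 atlastins were lower, where 5.03% of all genes passed the same test in either direction.

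The genes outside the family whose log2 CPM followed the mean of the 10 members most closely over the 16 libraries were *Apol6* (r = 0.9995), *Serpina3f* (0.9994), *B2m* (0.9993), *Irf1* (0.9991) and *9930111J21Rik1* (0.9991), among 13699 genes with a mean of at least 1 CPM. The libraries form a vehicle and a stimulated cluster, and *Apol6*, *Serpina3f* and *9930111J21Rik1* averaged -4.13 log2 CPM, the value of no reads, in vehicle. With the treatment means removed, r was 0.89 for *B2m*, 0.45 for *Serpina3f*, 0.26 for *Irf1*, 0.12 for *9930111J21Rik1* and 0.04 for *Apol6*. The mean of the 10 members was 0.64 ± 0.1 log2 CPM in WT vehicle and 0.69 ± 0.13 in KO vehicle, and 9.82 ± 0.13 and 9.86 ± 0.09 after stimulation.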

How the data were processed

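Poly-A RNA-seq libraries, prepared without strand information, were quantified by the authors with Salmon 1.7.0 against the GRCm39 transcriptome. They deposited for each transcript an expected count, the TPM and the effective length, and for each gene a CPM on TMM-scaled libraries (treated as a score, since its column sums differ from those of plain CPM). The authors' limma 3.58.1 table holds the log2 of these CPM.

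Expected counts were summed per gene over 106440 of 129698 transcripts that could be paired with a symbol (96.7% to 97.3% of reads) and rounded. Tests used the quasi-likelihood test of edgeR 4.0.16 in R 4.3.3 on TMM-scaled libraries with offsets for gene length, after filterByExpr with its minimum count at 10, with Benjamini-Hochberg adjustment over 16066 genes and a threshold of 0.05. Responses and the interaction were fitted within litters. Genotypes were compared without litter terms, since each litter has 1 genotype. That fit used all 16 libraries, with 1 spread per gene shared by the 4 groups. The vehicle and stimulated library of a litter thus counted as independent, though their estimated correlation was 0.351. Its standard errors are therefore not the spread among the litters of 1 treatment. A standard error is the fold change over the root of its F statistic. The script was tested on simulated data. The alternatives were DESeq2 1.42.0, limma-voom, RLE scaling, no filter, no length offsets, counts recovered from the deposited CPM, limma on the deposited log2 CPM, a replicate block added or removed, only the libraries of 1 treatment, and each litter left out.

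Litters pair the libraries by the study's design, and the deviations of a litter's vehicle and stimulated library correlated across genes at r = 0.07 to 0.35. Levels and responses within litters are from the deposited log2 CPM and comparisons between genes from TPM. All 10 members, *Nlrx1*, *Gbp2b*, *Irf1*, the 2 genes of each list with the largest WT response and the 5 closest genes by r were to be named, and 1 further gene of the rule is not reported here. Other genes named from a list, *Ifngr1*, *Ifngr2*, *P2ry12*, *Cd68* and the astrocyte markers given with values, were chosen after their values were seen. *Aim2*, *Nlrp3* and *Il1b* were named only because they were not tested. The members and lists were chosen with earlier results of these data known. Intervals and floors cover counting error only.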

Additional observations from a re-analysis of the deposited data

Results flagged for a closer look

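Of 60 groups of 4 libraries checked for a single library far from the others, 2 stood out, where chance gives about 1 in 20. *Gbp8* in WT vehicle was highest in litter 2, at -3.41 log2 CPM, which is 1 read against 0 in the other WT vehicle libraries. *Gbp11* in stimulated WT was highest in litter 4, at 6.86 log2 CPM, with the other WT litters between 6.2 and 6.28.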

How the results depend on the processing

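The responses of all 10 members to LPS + IFNγ passed in both genotypes under every one of the 16 alternatives run for each, and the number of members passed stayed at 10. The genotype counts moved from 0. DESeq2 passed 3 in vehicle and 2 after stimulation, limma-voom 1 after stimulation, and limma-voom with the litter as a random effect, added after the data were seen, 3. Leaving out 1 litter at a time gave 0 to 1 in the interaction, 0 to 2 in vehicle and 0 to 1 after stimulation. Each higher count came from the fit without KO litter 3. That litter was often the nearest to WT, so these counts add no support. With the replicate number as a block across genotypes 1 member passed after stimulation (*Gbp3*, 0.54, edgeR adjusted p = 0.0488) and 0 in vehicle. The share of all genes that passed this fit is not given, so the count has no background to be set against. The same number in both genotypes marks no shared animal, and libraries with the same number correlated across genes at r = -0.09 to 0.18.

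Direction turned in some genotype differences, none of them past the threshold. The *Gbp4* interaction, -0.55 in the edgeR fit of all libraries, became 0.24 with DESeq2, 0.28 with limma on the deposited log2 CPM and 0.49 without KO litter 4, and the *Gbp6* interaction -0.0345 without KO litter 2. In vehicle, *Gbp5* became -0.14 without KO litter 2 and *Gbp4*, 0.95 with all libraries, -0.13 without KO litter 4. After stimulation, *Gbp7* became 0.00294 without length offsets, 0.00217 on recovered counts, and 0.0215, 0.0193 and 0.0224 without WT litter 4, KO litter 1 and KO litter 3. Over the fits that leave out 1 litter, the *Gbp4* interaction ran from -0.89 to 0.49, that of *Gbp6* from -0.0345 to 0.27, *Gbp4* in vehicle from -0.13 to 1.33, *Gbp5* in vehicle from -0.14 to 0.29 and *Gbp7* after stimulation from -0.06 to 0.0224. The cause was not tested. With log2(CPM + 1), 11 of the 20 responses within litters moved by more than their SD, down to 10.96 for *Gbp10* and 8.81 for *Gbp8* in WT. Depth limited *Gbp8*, *Gbp10* and *Gbp11* in vehicle.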
